A study of Mus musculus with 12 samples.

Results

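Me1, the enzyme genes of fatty acid synthesis (Acly, Acaca, Fasn, Scd1 and Scd2), the transcription factor gene Srebf1, the nuclear receptor gene Nr1h3 and the cholesterol exporter genes Abca1 and Abcg1 were followed in mouse peritoneal macrophages. These are 10 genes of the 19938 genes that the array measured with a probe set of 1 gene symbol. A member is a gene whose symbol equals 1 of these 10 names. It is represented by its probe set with the highest mean signal, and Me1 and Acaca each had a second probe set that served as a check. The 4 groups are peritoneal cells of female Nfkbiz-/- mice (knockout, KO) given 1 µg/ml lipopolysaccharide (LPS) for 4 h, KO cells left untreated, cells of female C57Bl/6 mice (wild type, WT) given the same LPS treatment, and WT cells left untreated, with 3 arrays in each. Nfkbiz encodes IκBζ, an LPS-inducible nuclear protein of the IκB family, and LPS is a bacterial cell-wall component sensed through TLR4. Cells of every group were washed out of the peritoneal cavity and cultured for 2 h on plates before treatment. No sort is described. The labels give the KO mice no background strain, so the deletion and a strain difference cannot be told apart. Nor do they state that the 3 arrays of a group came from different mice. The p-values therefore reflect the spread among these arrays alone, and that spread may be technical.

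Malic enzyme 1, the product of Me1, turns malate into pyruvate in the cytosol and yields NADPH, the reducing agent that fatty acid synthesis consumes. ATP citrate lyase (Acly) makes cytosolic acetyl-CoA, acetyl-CoA carboxylase (Acaca) makes malonyl-CoA, fatty acid synthase (Fasn) builds palmitate, and the stearoyl-CoA desaturases (Scd1, Scd2) introduce a double bond. SREBP-1, from Srebf1, activates these enzyme genes. The liver X receptor LXRα (Nr1h3) is an oxysterol sensor that activates Srebf1 and the exporter genes Abca1 and Abcg1, and in macrophages LXR signalling couples cholesterol efflux to lipid synthesis and restrains inflammatory genes.

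Me1 was selected on its untreated difference between genotypes in these same arrays, which makes that difference a description. The other 9 genes were chosen by their place in the same pathways. Untreated KO against WT values are therefore given below without a test for all 10 genes, and so are the LPS responses of Me1, which use the same untreated arrays. The LPS responses of the other 9 genes and the KO against WT comparison with LPS were tested with limma, a linear model across all 19938 genes, and a gene was called at a Benjamini-Hochberg adjusted p under 0.05.

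The cells carried macrophage markers, with 6 of 6 measured markers above the array median in all 4 groups. In this and later marker counts the array median is that of the probe sets with 1 gene symbol. The summed intensity of these markers was 42004 to 44019 with LPS and 49979 to 52429 untreated in KO cells, and 40022 to 40159 with LPS and 50766 to 52394 untreated in WT cells. Nfkbiz, the targeted gene, read 1335 to 1634 on the KO LPS arrays and 267 to 286 on the KO untreated arrays, against 3079 to 3786 on the WT LPS arrays and 406 to 463 on the WT untreated arrays. Whether its probe set lies inside the deleted stretch is not stated. Log2 values of arrays of the same group correlated at 0.983 to 0.996. KO LPS replicate 2 stood apart at several of the 10 genes, and results that rest on it are given below with and without it. The number of arrays limits the precision.

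The stretches of 250 bases upstream of the annotated start are shown for Me1, whose level separated the genotypes, for Fasn and Acly, enzyme genes that were lower with LPS in both genotypes, and for Abca1, which was called in neither LPS response. They come from RefSeq on assembly GRCm38.p6, are written in the direction of transcription, and all 4 genes lie on the minus strand. Capitals mark matches on either strand to CCAAT, the letters NF-Y binds, to GGGCGG, the GC box bound by Sp1, and to CACGTG, an E-box that SREBP-1 can bind.
Me1, chr9:86695915-86696164: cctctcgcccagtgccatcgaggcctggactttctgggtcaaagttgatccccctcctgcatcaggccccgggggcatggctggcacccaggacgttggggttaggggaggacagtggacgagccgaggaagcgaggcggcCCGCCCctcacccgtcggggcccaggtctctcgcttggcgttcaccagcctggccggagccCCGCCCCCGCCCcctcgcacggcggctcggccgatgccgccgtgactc
Fasn, chr11:120824548-120824797: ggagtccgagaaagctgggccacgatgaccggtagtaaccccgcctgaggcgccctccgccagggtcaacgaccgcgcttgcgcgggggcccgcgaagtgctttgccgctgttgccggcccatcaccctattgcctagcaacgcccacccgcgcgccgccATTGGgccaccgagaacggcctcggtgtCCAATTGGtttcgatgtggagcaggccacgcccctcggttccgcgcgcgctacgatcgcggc
Acly, chr11:100528001-100528250: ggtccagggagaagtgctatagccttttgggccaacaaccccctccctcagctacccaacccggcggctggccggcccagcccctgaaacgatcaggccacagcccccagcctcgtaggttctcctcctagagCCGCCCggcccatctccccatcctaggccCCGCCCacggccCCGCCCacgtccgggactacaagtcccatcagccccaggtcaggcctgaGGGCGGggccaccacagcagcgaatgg
Abca1, chr4:53159896-53160145: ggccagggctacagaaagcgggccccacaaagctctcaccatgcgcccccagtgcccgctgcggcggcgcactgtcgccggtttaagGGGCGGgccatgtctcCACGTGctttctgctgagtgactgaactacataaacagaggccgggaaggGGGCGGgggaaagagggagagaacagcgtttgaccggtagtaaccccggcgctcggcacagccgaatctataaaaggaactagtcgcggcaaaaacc
The printed Me1 window holds 3 GC box matches, with first bases at positions -109, -48 and -42 from the start, and no CCAAT match. RefSeq gives Me1 a second start, and its window, chr9:86687278-86687527, which is not printed, holds a CCAAT match at -208 on the opposite strand and no GC box. The Fasn window holds 3 CCAAT matches, at -90 on the opposite strand and as an overlapping pair at -62 and -59 on both strands, and no GC box. Acly has 4 GC box matches, between -117 and -27, while Abca1 has 2 of them, at -163 and -97, and the E-box at -147. Promoters of 7 of the 10 genes were matched in the RefSeq table, in 11 windows. CCAAT occurred in 4 of these windows, and in 33.8% of 32851 promoters of the same length. GGGCGG occurred in 5 of the 11 windows and in 32.7% of all promoters, and CACGTG in 1 window and 6.02% of all promoters. The core letters of the sterol regulatory element that SREBP binds, TCACNCCAC, occurred in 0 of the 11 windows and in 1.05% of all promoters. TGACNNNGC, the core of the antioxidant response element bound by NRF2, was in 0 of the 11 windows and 10.2% of all promoters, and the direct repeat of the LXR element with a spacer of 4 bases was in 0 of the 11 windows and 0.0152% of all promoters. Each motif was searched on both strands, a match is only a match of letters, and a window without one says nothing about the factor.

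**Figure D1:**
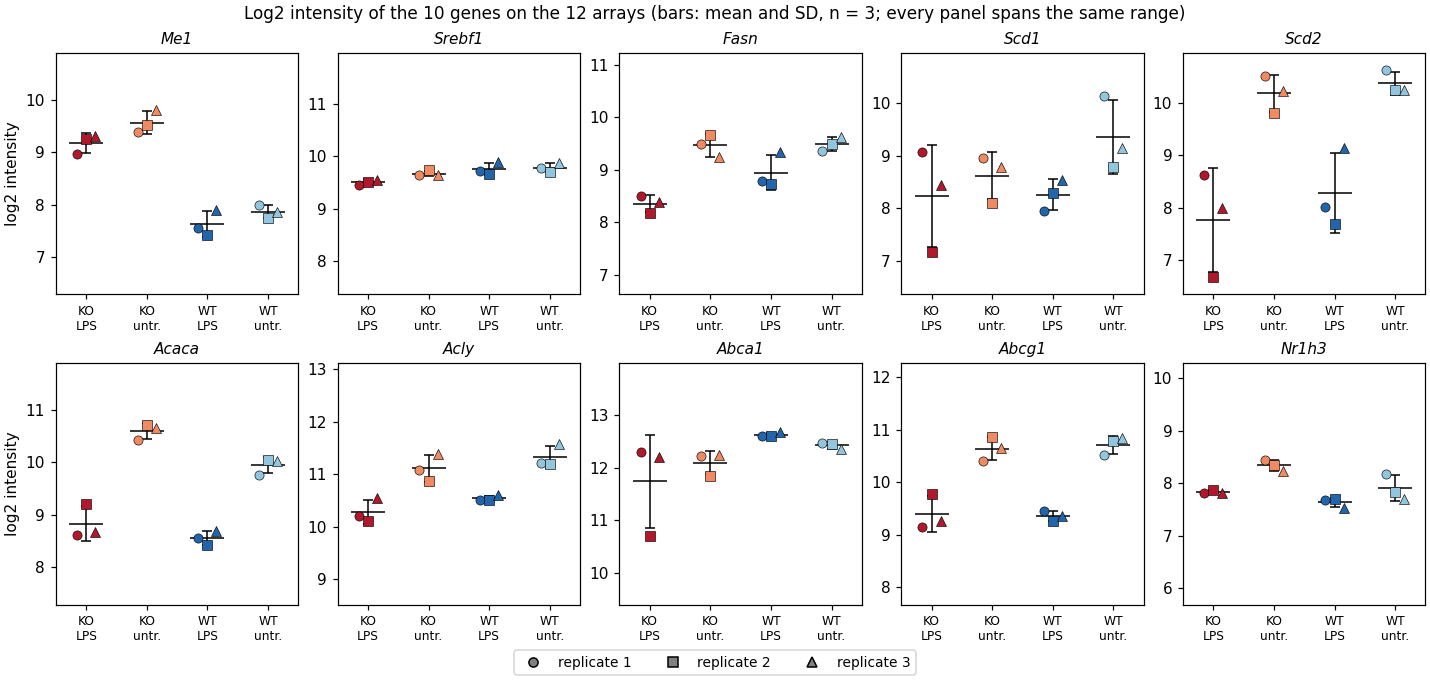
Log2 intensity (y axis) of the 10 genes on the 12 arrays, by group (x axis: KO LPS, KO untreated, WT LPS, WT untreated). Symbols are replicates 1 to 3, lines and bars are the mean and SD of 3 arrays, and every panel spans the same range of log2 units. All 6 KO arrays sit above all 6 WT arrays at Me1, and KO LPS replicate 2 is the lowest point at Scd1, Scd2 and Abca1.

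Me1 signal was higher in every KO array than in any WT array, with or without LPS. Its intensity was 498, 611 and 633 on the KO LPS arrays, 668, 730 and 894 on the KO untreated arrays, 188, 172 and 239 on the WT LPS arrays, and 255, 216 and 232 on the WT untreated arrays. The lowest KO reading, from KO LPS replicate 1, lay above the highest WT reading, from WT untreated replicate 1. In a bulk sample, fewer cells of a type and less RNA per cell cannot be told apart. With LPS, Me1 averaged 581 ± 72.7 in KO cells and 200 ± 34.8 in WT cells (SD, n = 3 each), a 2.92-fold difference. On the log2 scale this was 1.55 (SE 0.15, 95% interval 1.23 to 1.86, limma adjusted p = 0.000145). The KO LPS arrays deviated together with the same-numbered KO untreated arrays, on which Me1 was selected, so this p is not independent of that choice. Of all 19938 genes, 3.28% were called higher in KO than in WT cells with LPS and 4.87% lower. Over the 20 alternatives tried, the Me1 difference with LPS lay between 1.45 and 1.68, at limma adjusted p from 2.55e-05 to 0.00828.

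Markers of mast cells or eosinophils were also higher on 4 of the 6 KO arrays than on any WT array, and 0 of the 7 were called between genotypes. The summed intensity of the 7 markers, all measured, was 1308, 703 and 2302 on the KO LPS arrays and 1410, 968 and 2524 on the KO untreated arrays, against 717, 1013 and 836 on the WT LPS arrays and 862, 978 and 791 on the WT untreated arrays. Replicates 1 and 3 of both KO groups lay above every WT array, while KO replicate 2 lay below the highest WT array with and without LPS. Me1 read 611 with LPS and 730 untreated in KO replicate 2, above every WT array. The mast cell protease gene Mcpt4 averaged 333 with LPS and 325 untreated in KO cells, and 92.6 with LPS and 102 untreated in WT cells. Cpa3, the mast cell carboxypeptidase gene, averaged 295 with LPS and 389 untreated in KO cells, and 138 with LPS and 158 untreated in WT cells. Of the 7 markers, 4 were above the array median in both KO groups, 2 in WT cells with LPS and 3 in untreated WT cells, and the eosinophil genes Prg2 and Epx were below it in all 4 groups, at averages of 40.6 to 66.9. Within groups this sum had r = 0.229 with Me1. Of the 9 marker lists, T or NK cells had the highest r with Me1, 0.631, followed by large peritoneal macrophages at 0.413. The T or NK cell sum was 509 to 568 with LPS and 483 to 527 untreated in KO cells. In WT cells it was 465 to 485 with LPS and 422 to 516 untreated. Of its 6 measured markers, 1 was called higher in KO cells with LPS and 0 untreated, and 0 or 1 was above the array median in each group. The part of any of these cell types in the Me1 difference was not tested on any array.

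The second probe set of Me1 gave the same order. It read 407, 554 and 549 on the KO LPS arrays, 555, 651 and 777 on the KO untreated arrays, 158, 133 and 208 on the WT LPS arrays, and 210, 186 and 198 on the WT untreated arrays. KO and WT arrays did not overlap here either, and with LPS the log2 difference was 1.61 (SE 0.17, limma adjusted p = 0.000356).

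Untreated, Me1 averaged 764 ± 117 in KO cells and 234 ± 20.0 in WT cells, a log2 difference of 1.70 that put the gene forward and is given with no test. Only 0.0351% of all genes were called higher in untreated KO cells and 0.0752% were called in either direction. The LPS response of Me1, also a description, was -0.39 on the log2 scale in KO cells and -0.24 in WT cells. In KO cells the LPS arrays lay below the untreated arrays, while in WT cells the groups overlapped. After centring the arrays on their 75th percentile the KO response of Me1 was -0.14.

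**Figure D2:**
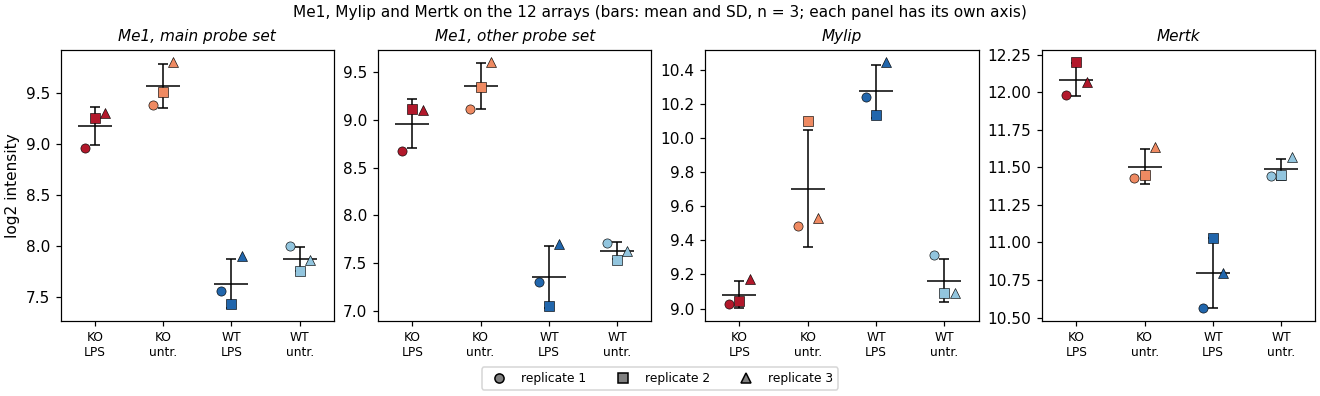
Log2 intensity (y axis) of both Me1 probe sets, Mylip and Mertk on the 12 arrays, by group (x axis). Symbols are replicates 1 to 3 and bars show the mean and SD of 3 arrays, with an axis of its own in each panel. Both Me1 panels split by genotype, whereas Mylip and Mertk part between genotypes with LPS.

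The genes whose log2 intensity followed Me1 most closely over the 12 arrays were sought among 2306 named genes with an SD of at least 0.5. Tbc1d23, a protein of endosome to Golgi traffic, had the highest Pearson r with Me1, 0.919, and lies on chromosome 16. C1ra, a complement protease gene, followed at 0.87, then Tent5c, a poly(A) polymerase gene, at 0.869. Aif1, which encodes the macrophage protein Iba1, had r = 0.846 and the adhesion receptor gene Adgre4 r = 0.845. The 12 points share 4 groups, so these r values describe the group pattern and carry no p. Tbc1d23 read 754, 1068 and 784 on the KO LPS arrays and 1054, 1345 and 1114 on the KO untreated arrays, against 429, 413 and 475 on the WT LPS arrays and 784, 546 and 554 on the WT untreated arrays. At Tbc1d23 the KO LPS arrays and the WT untreated arrays overlapped, which was not so at Me1. They overlapped at Aif1 and Adgre4 too. At C1ra and Tent5c, as at Me1, every KO array lay above every WT array. The lowest KO readings there were 249 and 567, and the highest WT readings 197 and 539. Me1 lies on chromosome 9, and of the 20 measured genes nearest to it, 10 on each side, 5 were called in KO against WT cells with LPS, where 8.14% of all genes were called in either direction, and 0 untreated, where 0.0752% were. Of these neighbours Tpbg, which encodes the 5T4 glycoprotein, had the largest difference with LPS, at -2.83 (limma adjusted p = 9.64e-07). Prss35 had the largest untreated difference of the 20, at 2.34, and differed by 1.48 with LPS, and was called in neither comparison. Both genes were picked for their values.

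Scd2, Acaca, Acly, Fasn and Abcg1 fell with LPS in both genotypes, Nr1h3 fell in KO cells, and Scd1, Srebf1 and Abca1 were not called in either. In KO cells 6 of the 9 genes other than Me1 fell and 0 rose, where 23.8% of all genes were called lower and 21.9% higher. In WT cells 5 of the 9 fell and 0 rose, where 18.5% of all genes were called lower and 9.53% higher. The median log2 response of the 9 genes was -0.83 in KO cells and -0.79 in WT cells, beside 0.07 and 0.04 over all genes. Without KO LPS replicate 2 the counts were 6 in KO cells and 6 in WT cells.

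Of the 9 genes, Acaca had the lowest adjusted p in each genotype. It read 391, 593 and 405 on the KO LPS arrays, 1378, 1683 and 1604 on the KO untreated arrays, 375, 343 and 410 on the WT LPS arrays, and 870, 1059 and 1039 on the WT untreated arrays. LPS and untreated arrays were far apart in both genotypes, and among the untreated arrays the KO ones were higher. Acaca fell by 1.77 in KO cells with LPS (SE 0.15, limma adjusted p = 4.18e-06) and by 1.39 in WT cells (SE 0.15, limma adjusted p = 3.66e-05). Its second probe set fell by 1.75 in KO cells and by 1.24 in WT cells.

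Scd2, a desaturase gene, showed the largest fall of the 10 genes in each genotype. Its intensity was 394, 103 and 255 on the KO LPS arrays and 1457, 894 and 1195 on the KO untreated arrays, and 258, 207 and 564 on the WT LPS arrays and 1570, 1210 and 1213 on the WT untreated arrays. LPS arrays lay below untreated arrays in both genotypes, with a wide spread among the LPS arrays. The log2 response was -2.41 in KO cells (SE 0.45, limma adjusted p = 0.00112), and -1.87 without KO LPS replicate 2 (limma adjusted p = 0.00181). In WT cells it was -2.09 (SE 0.45, limma adjusted p = 0.00435). The related gene Scd1 was called in neither genotype. It read 541, 144 and 350 with LPS and 500, 276 and 441 untreated in KO cells, and 246, 312 and 373 with LPS and 1133, 441 and 563 untreated in WT cells. The KO groups overlapped and the WT groups did not, at responses of -0.39 (limma adjusted p = 0.502) and -1.10 (limma adjusted p = 0.0953). The WT response of Scd1 was called without KO LPS replicate 2 (limma adjusted p = 0.0285).

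Fasn and Acly stand at the 2 ends of palmitate synthesis. Fasn read 364, 290 and 333 on the KO LPS arrays and 719, 809 and 604 on the KO untreated arrays, against 441, 422 and 648 on the WT LPS arrays and 657, 722 and 790 on the WT untreated arrays. Its KO groups were well apart, while WT LPS replicate 3 came close to the untreated WT arrays. Fasn fell by 1.11 in KO cells with LPS (SE 0.16, limma adjusted p = 0.000215) and by 0.55 in WT cells (SE 0.16, limma adjusted p = 0.0265). The WT call did not survive 4 of the 12 leave-one-out fits, those without WT LPS replicate 1 (-0.46) or 2 (-0.43) or WT untreated replicate 2 (-0.55) or 3 (-0.48). Centring on the 75th percentile (-0.38, limma adjusted p = 0.0601) or a second quantile normalization (-0.42, limma adjusted p = 0.0849) also ended it. Acly was 1186, 1104 and 1496 on the KO LPS arrays and 2174, 1879 and 2666 on the KO untreated arrays, and 1453, 1469 and 1555 on the WT LPS arrays and 2395, 2365 and 3058 on the WT untreated arrays. The groups did not overlap in either genotype. Acly fell by 0.83 in KO cells (SE 0.15, limma adjusted p = 0.000842) and by 0.79 in WT cells (SE 0.15, limma adjusted p = 0.00164).

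Srebf1, which encodes the activator of these enzymes, was called in neither genotype. It read 698, 727 and 752 on the KO LPS arrays and 799, 850 and 794 on the KO untreated arrays, and 844, 813 and 949 on the WT LPS arrays and 879, 826 and 929 on the WT untreated arrays. The KO groups did not overlap and the WT groups did. The response was -0.17 in KO cells (95% interval -0.34 to 0, limma adjusted p = 0.0976) and -0.02 in WT cells (95% interval -0.19 to 0.15, limma adjusted p = 0.892). With the arrays centred on their 75th percentile both values turned positive, at 0.08 in KO cells and 0.15 in WT cells. That scaling raised the median response of all genes to 0.32 in KO cells and 0.21 in WT cells.

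**Figure D3:**
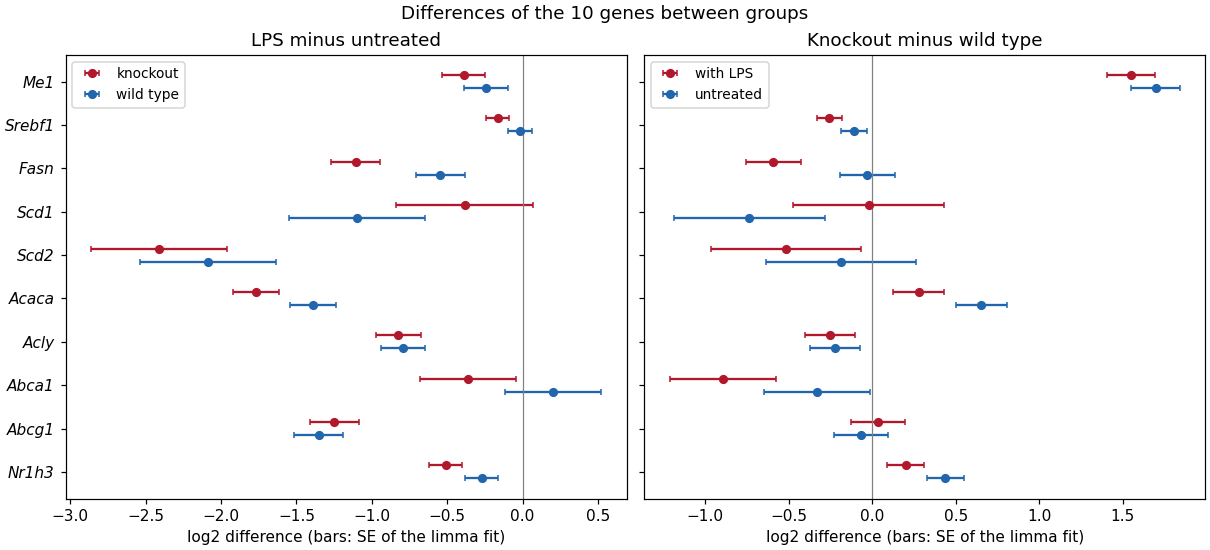
Log2 differences (x axis) of the 10 genes (y axis), with LPS minus untreated in KO and WT cells in the left panel and KO minus WT with LPS and untreated in the right panel. Points are estimates of the limma fit and bars are its SE. Scd2, Acaca and Abcg1 lie furthest left among the LPS responses, and Me1 stands apart on the right.

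Of the LXR genes, Abcg1 fell and Abca1 was not called. Abcg1, which passes cholesterol to high-density lipoprotein, read 566, 880 and 611 on the KO LPS arrays and 1363, 1861 and 1614 on the KO untreated arrays, and 704, 616 and 656 on the WT LPS arrays and 1463, 1760 and 1836 on the WT untreated arrays. Every LPS array lay below every untreated array. The response was -1.25 in KO cells (SE 0.16, limma adjusted p = 8.79e-05) and -1.35 in WT cells (SE 0.16, limma adjusted p = 7.63e-05). Nr1h3, the gene of LXRα itself, read 223, 234 and 226 with LPS and 348, 326 and 301 untreated in KO cells, and 206, 207 and 184 with LPS and 289, 228 and 209 untreated in WT cells. The groups did not overlap in either genotype, though WT untreated replicate 3 lay close to the LPS arrays. Nr1h3 fell by 0.51 in KO cells (SE 0.11, limma adjusted p = 0.00299), and by 0.26 after centring on the 75th percentile, where the call was lost (limma adjusted p = 0.0511). In WT cells its response was -0.27 (limma adjusted p = 0.0922), and -0.37 without WT untreated replicate 3 (limma adjusted p = 0.0346).

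Abca1, which hands cholesterol to lipid-poor apolipoprotein A-I, read 5026, 1668 and 4728 on the KO LPS arrays and 4743, 3664 and 4837 on the KO untreated arrays. On the WT LPS arrays it read 6259, 6217 and 6540, and on the WT untreated arrays 5678, 5627 and 5235. The KO groups overlapped, and KO LPS replicate 2 was far below every other array. In WT cells the LPS arrays lay above the untreated ones by a small margin. The KO response was -0.36 (limma adjusted p = 0.37), and 0.15 without KO LPS replicate 2 (limma adjusted p = 0.297). In WT cells it was 0.20 (95% interval -0.50 to 0.90, limma adjusted p = 0.679).

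**Figure D4:**
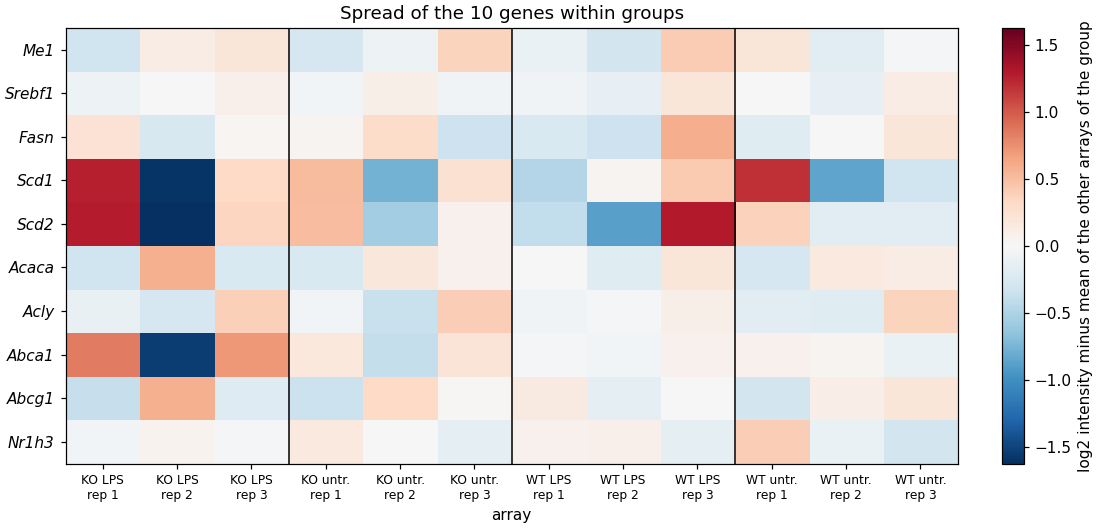
Deviation of each array from the mean of the other arrays of its group (colour, log2 intensity) for the 10 genes (y axis) on the 12 arrays (x axis). KO LPS replicate 2 is low at Scd1, Scd2 and Abca1 (-1.59, -1.63 and -1.55) and high at Acaca and Abcg1 (0.57 and 0.58).

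KO LPS replicate 2 differed from the other KO LPS arrays by -1.59 at Scd1, -1.63 at Scd2 and -1.55 at Abca1, and by 0.57 at Acaca and 0.58 at Abcg1. KO untreated replicate 2 deviated the same way at these 5 genes, by -0.77, -0.56, -0.39, 0.18 and 0.33. Over the 12 arrays, after each group's mean was taken out, Acaca and Abcg1 had r = 0.938 and Scd1 and Scd2 had r = 0.821, while Scd1 and Abcg1 had r = -0.919. These arrays share their groups and their normalization, and the r values are descriptions. The summed intensity of 7 measured of 8 listed markers of small peritoneal macrophages or monocytes varied in the same arrays. It was 18418, 10867 and 17394 on the KO LPS arrays, 16181, 9529 and 15923 on the KO untreated arrays, 12828, 13571 and 12219 on the WT LPS arrays, and 15848, 11313 and 9008 on the WT untreated arrays. Replicate 2 was lowest in both KO groups, and 5 of the 7 markers were above the array median in KO cells with LPS, 4 in untreated KO cells and 5 in both WT groups. Most of the sum came from H2-Ab1, H2-Aa and Cd74, genes of MHC class II antigen presentation. They averaged 6612, 3092 and 5336 in KO cells with LPS, where Ccr2 averaged 25.6 and Cd226 37.4. The r values of the sum therefore mainly follow the MHC class II genes and not the whole list. Mrc1, also of this list, averaged 187 with LPS and 108 untreated in KO cells, and 618 and 339 in WT cells. Of the 7 markers it alone was called between genotypes untreated, as lower in KO cells (limma adjusted p = 0.022). Within groups the sum of this list had r = 0.836 with Scd1, 0.595 with Scd2, 0.723 with Abca1, -0.821 with Acaca, -0.898 with Abcg1 and -0.011 with Me1. The sum of 5 measured of 6 B cell markers also varied with these genes. It was 1106, 714 and 1173 on the KO LPS arrays, 1470, 872 and 1348 on the KO untreated arrays, 907, 1032 and 1240 on the WT LPS arrays, and 1772, 1182 and 1191 on the WT untreated arrays. KO replicate 2 was again lowest in both KO groups, and 5 of the 5 markers were above the array median in both LPS groups, 3 in untreated KO cells and 4 in untreated WT cells. Within groups the B cell sum had r = 0.902 with Scd1, 0.771 with Scd2, 0.709 with Abca1, -0.73 with Acaca, -0.885 with Abcg1 and 0.241 with Me1. The sum of 5 measured of 6 markers of large peritoneal macrophages was 11880 to 13649 with LPS and 14947 to 17455 untreated in KO cells, and 10194 to 13194 with LPS and 13436 to 16141 untreated in WT cells. It had r = 0.866 with Srebf1 and 0.413 with Me1. Most of this sum came from Alox15 and Cd9. Timd4 averaged 1494 with LPS and 789 untreated in KO cells, and 361 and 209 in WT cells. Gata6 with LPS went the other way, at 1178.5 in KO cells and 1969.6 in WT cells. Of the 5 markers, 0 were called between genotypes with LPS or untreated. The part of these cells in the results was not tested. Of 10 adipocyte markers, listed because Me1, Fasn and Scd1 are abundant in fat, 8 were measured, and their sum was 1353 to 1603 over the 12 arrays. Of the 8, 5 were above the array median in both LPS groups and 3 in both untreated groups. Lipe, which macrophages also express, averaged 608 with LPS and 743 untreated in KO cells, and 475 with LPS and 746 untreated in WT cells. Retn, the resistin gene, averaged 187 to 267 in the 4 groups and the droplet coat gene Plin4 148 to 170. Adipoq, the adiponectin gene that defines adipocytes, averaged 32 to 34, below the array medians of 110 to 119 over all 35556 probe sets. The marker counts use the median of the probe sets with 1 gene symbol instead. The part of adipocytes in the results was not tested.

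Between genotypes with LPS, 2 of the 10 genes were called, Me1 as higher in KO cells and Fasn as lower, and 8 were not. Without Me1, which was selected on its genotype difference, 1 of 9 was called. Of all genes, 4.87% were called lower and 3.28% higher, so this count was near the background. The median difference of the 10 genes was -0.14, beside -0.01 over all genes. Fasn averaged 329 ± 37.3 in KO cells and 504 ± 125 in WT cells (SD, n = 3 each), and the groups did not overlap. The log2 difference was -0.59 (SE 0.16, limma adjusted p = 0.0476). Fasn missed the threshold in 9 of the 12 fits without 1 array and in 5 of the 8 other alternatives, over which the difference ran from -0.71 to -0.40 and the adjusted p from 0.0263 to 0.163. The largest uncalled difference was that of Abca1, which averaged 3807 ± 1859 in KO cells and 6338 ± 176 in WT cells. The groups did not overlap, at a log2 difference of -0.89 (95% interval -1.59 to -0.20, limma adjusted p = 0.116). Without KO LPS replicate 2 the difference was -0.38 (limma adjusted p = 0.0743).

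Srebf1 with LPS averaged 726 ± 27.1 in KO cells and 869 ± 71.1 in WT cells, and the groups did not overlap (-0.26, 95% interval -0.43 to -0.09, limma adjusted p = 0.0664). It was called without WT LPS replicate 2 (-0.30, limma adjusted p = 0.0453). Nr1h3 averaged 228 ± 5.55 in KO cells and 199 ± 12.6 in WT cells, again with no overlap (0.20, 95% interval -0.04 to 0.44, limma adjusted p = 0.343). At Scd1, Scd2, Acaca, Acly and Abcg1 the genotypes overlapped. The share of all genes without overlap was not counted for any comparison with LPS, so a lack of overlap alone is not read as a result. Scd2 differed by -0.52 (95% interval -1.50 to 0.47) and by 0.03 without KO LPS replicate 2, and Scd1 by -0.02 (95% interval -1.01 to 0.97) and by 0.51 without it. Abcg1 differed by 0.03 (95% interval -0.32 to 0.39), and by -0.16 without that array.

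Untreated, the KO arrays stood apart from the WT arrays at Me1, Acaca, Nr1h3 and Abca1, and overlapped with them at the other 6 genes. How many of all genes stand apart in this way was not counted, so the separations are not read as a result. The 0.0752% of all genes called in either direction is a different and stricter measure. Acaca averaged 1555 ± 158 in KO cells and 989 ± 104 in WT cells, a log2 difference of 0.65, and 0.65 also at its second probe set. Nr1h3 averaged 325 ± 23.8 in KO cells and 242 ± 41.9 in WT cells, a difference of 0.44. Abca1 averaged 4414 ± 652 in KO cells and 5513 ± 242 in WT cells, a difference of -0.33. The values of the other genes ran from -0.74 at Scd1 to -0.03 at Fasn. All of these share the arrays on which Me1 was put forward and are descriptions.

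The LPS responses of the 9 genes were also compared between genotypes, as the KO response minus the WT response. In limma 0 of the 9 were called, where 0.747% of all genes were called in either direction, and 1 of the 9 had an unadjusted p under 0.05. That gene was Fasn, at -0.56 (95% interval -1.07 to -0.06, limma adjusted p = 0.329). Scd1 had the widest interval, -0.68 to 2.11 around 0.71, and Srebf1 the narrowest, -0.39 to 0.09 around -0.15. For Me1 the KO response minus the WT response was -0.15, as a description.

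**Figure D5:**
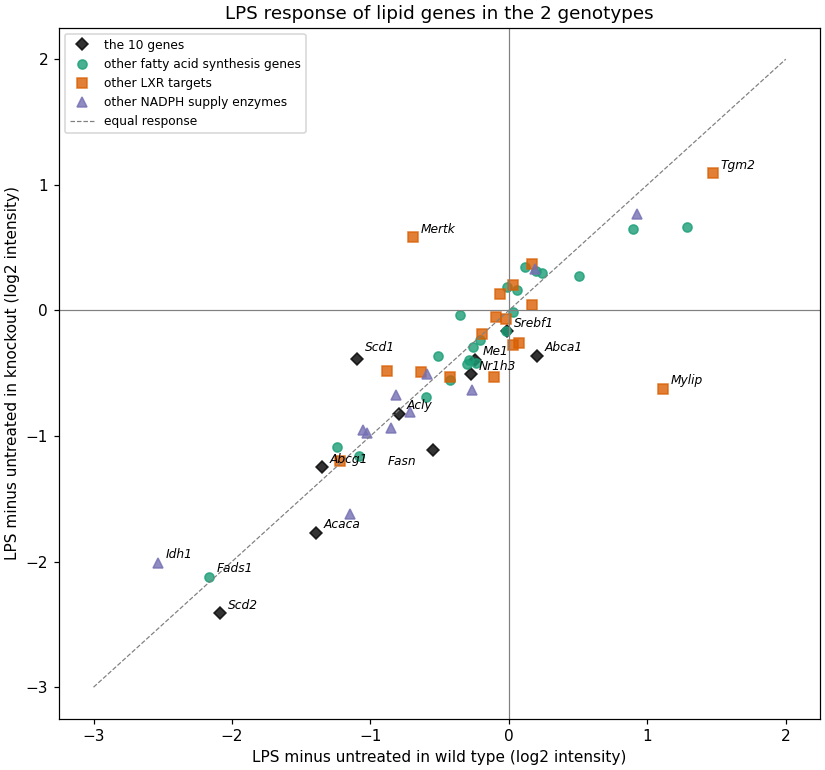
LPS response in KO cells (y axis) against the LPS response in WT cells (x axis), both as log2 intensity with LPS minus untreated, for the 10 genes and the other measured genes of 3 lists. The dashed line marks equal responses. Most genes lie near that line, and Mylip and Mertk lie in opposite corners away from it.

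Other genes of fatty acid synthesis, elongation and desaturation moved in both directions. Of 22 measured genes, 9 fell and 4 rose with LPS in KO cells (median -0.20, 0.07 over all genes), and 7 fell and 3 rose in WT cells (median -0.22, 0.04 over all genes). Of all genes, 23.8% were called lower and 21.9% higher in KO cells, and 18.5% lower and 9.53% higher in WT cells. With the arrays centred on the 75th percentile, 5 fell and 9 rose in KO cells and 5 fell and 6 rose in WT cells. That scaling also moved all genes, to 3122 called lower and 11483 higher in KO cells and 2636 lower and 7334 higher in WT cells. The turn in the balance of this list was thus not particular to it. Fads1, a delta-5 desaturase gene, read 409, 728 and 415 on the KO LPS arrays and 1888, 3002 and 1803 on the KO untreated arrays, and 370, 257 and 535 on the WT LPS arrays and 1732, 1553 and 1711 on the WT untreated arrays. LPS arrays were far below untreated arrays in both genotypes, with responses of -2.12 in KO cells (limma adjusted p = 0.000106) and -2.17 in WT cells (limma adjusted p = 0.000144). The elongase gene Elovl5 fell by 1.16 in KO cells and by 1.08 in WT cells, and Acss2, a cytosolic acetyl-CoA synthetase gene, by 1.09 and 1.24. Without KO untreated replicate 2 the Acss2 response in KO cells was -0.70 (limma adjusted p = 0.0351), and with only the 6 KO arrays its call was lost (limma adjusted p = 0.0517). Tecr, of the elongation cycle, fell by 0.69 in KO cells, whereas Acsbg1, an acyl-CoA synthetase gene, rose by 1.29 in WT cells. With LPS, 1 gene of the list was lower in KO than in WT cells. It was Acsl4, an acyl-CoA synthetase gene that prefers arachidonic acid, at -0.45 (limma adjusted p = 0.0349). The Acsl4 call was lost in 5 of the 12 fits without 1 array, among them those without KO LPS replicate 2 (-0.31) and WT LPS replicate 3 (-0.43). Without KO LPS replicate 2 the list had 1 gene higher and 0 lower in KO cells.

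More NADPH supply enzymes other than Me1 fell than rose with LPS. Of 11 measured genes, 9 fell and 2 rose in KO cells, where 23.8% of all genes were called lower and 21.9% higher (median -0.81, 0.07 over all genes). In WT cells 8 fell and 1 rose, where 18.5% of all genes were called lower and 9.53% higher (median -0.82, 0.04 over all genes). After centring on the 75th percentile 8 fell and 2 rose in KO cells and 7 fell and 2 rose in WT cells, and without KO LPS replicate 2 8 fell and 0 rose in KO cells. Idh1, cytosolic isocitrate dehydrogenase, read 1043, 1155 and 1089 on the KO LPS arrays and 5058, 3799 and 4467 on the KO untreated arrays, and 857, 667 and 889 on the WT LPS arrays and 4873, 4829 and 4175 on the WT untreated arrays. All LPS arrays were far below the untreated ones. Idh1 fell by 2.01 in KO cells (limma adjusted p = 5.88e-07) and fell by 2.53 in WT cells (limma adjusted p = 1.43e-07). H6pd, which makes NADPH in the endoplasmic reticulum, fell by 1.62 in KO cells and by 1.15 in WT cells. The mitochondrial enzyme genes Me2 and Idh2 responded by -0.98 and -0.95 in KO cells and by -1.02 and -1.06 in WT cells, and all 4 values were called. With LPS, Idh1 was 0.46 higher in KO than in WT cells (limma adjusted p = 0.0498), a call lost in 10 of the 12 fits without 1 array, at values from 0.33 to 0.53. Me1 is not counted in this list.

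SREBP processing genes and partners of LXR and PPAR were lower or not called with LPS in both genotypes. Of 15 measured genes, 8 fell and 0 rose in KO cells (median -0.41, 0.07 over all genes), and 6 fell and 0 rose in WT cells (median -0.11, 0.04 over all genes). These counts stand beside the 23.8% and 18.5% of all genes called lower. After centring on the 75th percentile 6 fell and 0 rose in KO cells, and 5 fell and 3 rose in WT cells. Rxra, which encodes the obligate partner of LXRα, read 461, 461 and 372 on the KO LPS arrays and 1645, 1900 and 1718 on the KO untreated arrays, and 733, 595 and 875 on the WT LPS arrays and 1609, 1567 and 1570 on the WT untreated arrays. The LPS arrays were lowest in KO cells and did not overlap with those of WT cells. Rxra fell by 2.03 in KO cells (limma adjusted p = 6.41e-07) and by 1.12 in WT cells (limma adjusted p = 5.65e-05), and with LPS the KO and WT cells differed by -0.76 (limma adjusted p = 0.00535), a call lost with only the 6 arrays compared (limma adjusted p = 0.0614). The related receptor gene Rxrb fell by 0.76 in KO cells and by 0.58 in WT cells. Ppargc1b, a coactivator gene, fell by 1.55 in KO cells and by 1.20 in WT cells.

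With LPS, 5 of these 15 genes were lower and 1 higher in KO than in WT cells (median -0.20, -0.01 over all genes), where 4.87% of all genes were called lower and 3.28% higher. Nr1d1, the gene of the heme receptor REV-ERBα, read 1497, 557 and 760 in KO cells and 2294, 2820 and 2239 in WT cells with LPS. The groups did not overlap, and KO LPS replicate 2 was again the lowest array (-1.51, SE 0.29, limma adjusted p = 0.00965, and 0.0705 with only the 6 arrays compared). In KO cells Nr1d1 fell by 0.97 with LPS (limma adjusted p = 0.018), and without KO LPS replicate 2 its response was -0.66 (limma adjusted p = 0.0635). That call was also lost without KO LPS replicate 3 (-0.88) or KO untreated replicate 1 (-0.80). Insig2, whose product holds SREBP in the endoplasmic reticulum, was lower in KO cells (-0.65, limma adjusted p = 0.0165), and its call was lost without WT LPS replicate 3 (-0.51, limma adjusted p = 0.0653). The nuclear receptor coactivator gene Ncoa1 was higher in KO cells, by 0.68 (limma adjusted p = 0.00504), and fell by 0.84 with LPS in WT cells.

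NRF2 target genes, a group in which Me1 is often listed, were mostly not called with all 12 arrays. Of 20 measured genes 5 fell and 2 rose with LPS in each genotype, with medians of -0.63 in KO cells and -0.46 in WT cells, beside 0.07 and 0.04 over all genes. Of all genes, 23.8% were called lower and 21.9% higher in KO cells, and 18.5% lower and 9.53% higher in WT cells. With all 12 arrays the share of this list called lower was thus near the background, though its medians were lower. After centring on the 75th percentile 4 fell and 3 rose in each genotype. Without KO LPS replicate 2, 12 fell and 2 rose in KO cells and 9 fell and 3 rose in WT cells. Txnrd1, thioredoxin reductase, rose by 0.96 in both genotypes. The carbonyl reductase gene Cbr3 fell by 1.75 in KO cells and by 1.29 in WT cells, a WT call lost in 4 of the 12 fits without 1 array (-1.29 to -1.22). Gsr, glutathione reductase, fell by 1.00 in KO cells and was lower there than in WT cells with LPS (-0.93, limma adjusted p = 0.00385), a call lost with only the 6 arrays compared (limma adjusted p = 0.0525). Hmox1, heme oxygenase, fell by 0.77 in KO cells, a call lost in 5 of the 12 fits without 1 array, with its smallest value, -0.46, without KO LPS replicate 3. In WT cells Gstm1, a glutathione transferase gene, fell by 1.03 and Taldo1, transaldolase, by 0.76, and the Gstm1 call was lost in 3 of the 12 fits, such as without WT LPS replicate 3 (-0.88). The transporter gene Abcc1 was lower in KO than in WT cells with LPS (-0.57, limma adjusted p = 0.0258), a call lost in 4 of the 12 fits, such as without KO LPS replicate 3 (-0.46). None of the 20 was called in untreated KO against WT cells, where 0 genes of any of the 6 lists were.

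Genes of triglyceride synthesis and lipid droplets were mixed. Of 16 measured genes, 6 fell and 3 rose with LPS in KO cells (median -0.25, 0.07 over all genes), and 6 fell and 2 rose in WT cells (median -0.03, 0.04 over all genes). These counts stand beside 23.8% of all genes called lower and 21.9% higher in KO cells, and 18.5% lower and 9.53% higher in WT cells. After centring on the 75th percentile, which raised all genes as well, 4 fell and 5 rose in KO cells and 5 fell and 6 rose in WT cells. Lpin1, a phosphatidate phosphatase gene, read 96.2, 76.8 and 97.1 on the KO LPS arrays and 503, 660 and 426 on the KO untreated arrays, and 108, 101 and 101 on the WT LPS arrays and 451, 505 and 524 on the WT untreated arrays. The LPS arrays were far below the untreated arrays in both genotypes, at -2.54 in KO cells (limma adjusted p = 2.86e-07) and -2.25 in WT cells (limma adjusted p = 7.75e-07). Gpam, of the first step of glycerolipid synthesis, fell by 1.32 in KO cells, and the droplet coat gene Plin3 fell by 1.32 in KO cells and by 0.78 in WT cells. Dgat2, of the last step of triglyceride synthesis, read 195, 120 and 175 in KO cells and 307, 365 and 863 in WT cells with LPS, with no overlap (-1.52, SE 0.32, limma adjusted p = 0.0145). With only these 6 arrays in the fit that call was lost (limma adjusted p = 0.0985). It rose by 1.27 with LPS in WT cells (limma adjusted p = 0.0111), and by 0.81 without WT LPS replicate 3 (limma adjusted p = 0.0129). Hilpda, a droplet protein that inhibits adipose triglyceride lipase, rose by 1.82 in KO cells and by 1.66 in WT cells, where it read 3790, 794 and 4433 on the KO LPS arrays, with replicate 2 far below the others. Its call was lost in 3 of the 12 fits without 1 array in KO cells (1.36 to 1.48) and in 7 of the 12 in WT cells. Lipe, hormone-sensitive lipase, was higher in KO than in WT cells with LPS, by 0.35 (limma adjusted p = 0.015), a call lost in 3 of the 12 fits, such as without KO LPS replicate 3 (0.30). With only the 6 arrays compared, the KO against WT calls of Lipe, Insig2, Abcc1, Acsl4 and Idh1 were lost as well, at limma adjusted p from 0.0778 to 0.121, and so were the KO responses of Hilpda, Hmox1 and Nr1d1, at limma adjusted p from 0.0649 to 0.0815.

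Among the other LXR target genes, 5 of 17 fell and 3 rose with LPS in KO cells (median -0.19, 0.07 over all genes), and 4 fell and 2 rose in WT cells (median -0.06, 0.04 over all genes). Of all genes, 23.8% were called lower and 21.9% higher in KO cells, and 18.5% lower and 9.53% higher in WT cells, so these counts were near the background. After centring on the 75th percentile, which raised all genes as well, 3 fell and 6 rose in KO cells and 3 fell and 4 rose in WT cells. Abca9, a lipid transporter gene, fell by 1.20 in KO cells and fell by 1.22 in WT cells, and Tgm2, transglutaminase 2, rose by 1.09 and 1.47. Abca7, another transporter gene of the family, was lower in KO than in WT cells with LPS (-0.48, limma adjusted p = 0.00579). Of the 17 genes, 2 responded to LPS differently in the genotypes, and in opposite directions.

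Mylip encodes the ubiquitin ligase IDOL, which LXR induces and which removes the LDL receptor from the cell surface. It read 521, 529 and 578 on the KO LPS arrays and 715, 1096 and 741 on the KO untreated arrays, against 1212, 1125 and 1395 on the WT LPS arrays and 636, 545 and 545 on the WT untreated arrays. LPS arrays were lower than untreated arrays in KO cells and higher in WT cells, with no overlap in either. Mylip fell by 0.62 in KO cells (SE 0.15, limma adjusted p = 0.00523) and rose by 1.11 in WT cells (SE 0.15, limma adjusted p = 0.00016). The KO response minus the WT response was -1.73 (SE 0.21, limma adjusted p = 0.00463).

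Mertk encodes a receptor for the uptake of apoptotic cells, which LXR induces in macrophages, and it is also 1 of the 6 macrophage markers. It read 4046, 4704 and 4302 on the KO LPS arrays and 2752, 2791 and 3185 on the KO untreated arrays, against 1511, 2088 and 1780 on the WT LPS arrays and 2786, 2792 and 3038 on the WT untreated arrays. The untreated groups overlapped between genotypes, and with LPS every KO array lay above every WT array. Mertk rose by 0.58 in KO cells (SE 0.11, limma adjusted p = 0.00146) and fell by 0.69 in WT cells (SE 0.11, limma adjusted p = 0.000666). The KO response minus the WT response was 1.27 (SE 0.16, limma adjusted p = 0.0053). With LPS the KO and WT cells differed by 1.29 at Mertk (limma adjusted p = 0.000103) and by -1.19 at Mylip (limma adjusted p = 0.000908).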

How the data were processed

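RNA of the 12 samples was measured on 1-colour Affymetrix whole-transcript arrays. The deposited values are linear intensity values per probe set, and per the submitters' processing notes they were summarised with RMA (Affymetrix Expression Console 1.1). RMA usually includes quantile normalization, which would hide a change of most transcripts in 1 direction. The intensities were put on a log2 scale with no pseudocount. The platform annotation gave exactly 1 symbol for 21789 of the 35556 probe sets, and the probe set with the highest mean was kept for each of 19938 genes. Groups were taken from the sample titles. The two-sided tests used limma 3.58.1 under R 4.3.3 (eBayes on a model of 4 group means, 12 arrays and 8 residual degrees of freedom), with Benjamini-Hochberg adjustment across the 19938 genes. A simulation of KO against WT with LPS over 19938 genes recovered 87% of the changes planted at 2-fold and 97% of those at 4-fold, and called 5 genes with no planted change. Changes were planted only in genes well above the array medians, and the simulated noise was independent between arrays. These shares need not hold for dim genes or for arrays that deviate together.

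The 10 members, 6 further gene lists and 9 marker lists were chosen with earlier results of these data known. Of 173 list entries, 159 were measured. The named genes are all members, up to 4 called genes of each list per comparison with the largest absolute difference, and the 5 genes most like Me1. Counts of the LPS responses leave Me1 out. Alternatives were other scalings, a filter on dim genes, another variance model, a replicate block, fits on 6 arrays, all probe sets, a threshold of 0.01 and leaving out each array. Same-numbered arrays of KO LPS and KO untreated cells deviated together (r = 0.322, 0.568 and 0.459), and those of WT cells less so (-0.07, 0.143 and 0.359). The labels do not say that a number marks a shared mouse, and the reported tests carry no block, which is an alternative. Promoter sequences came from RefSeq on GRCm38.p6.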

Additional observations from a re-analysis of the deposited data

Results flagged for a closer look

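The LPS responses of 2 LXR target genes differed between genotypes by the interaction test of limma. At Mylip the KO response minus the WT response was -1.73 (SE 0.21, limma adjusted p = 0.00463), with a response of -0.62 in KO cells and 1.11 in WT cells. Over 20 alternatives it ran from -1.85 to -1.54, at limma adjusted p from 0.00172 to 0.0218. At Mertk it was 1.27 (SE 0.16, limma adjusted p = 0.0053), with a response of 0.58 in KO cells and -0.69 in WT cells. Over the alternatives it ran from 1.15 to 1.39, at limma adjusted p from 0.00133 to 0.0228. Both were named because they passed this test among 17 measured LXR targets, in a comparison in which 0.747% of all genes were called.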

How the results depend on the processing

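Me1 in KO against WT cells with LPS kept its direction and its call under all 20 alternatives. The count of genes called there was 2, and was 1 with the arrays centred on the 75th percentile, with a second quantile normalization, with the replicate block, with only the 6 arrays compared and at a threshold of 0.01. It was 1 to 3 when 1 array was left out. The gene lost was Fasn (limma adjusted p = 0.064 with the replicate block). The counts of falling genes were 5 to 6 with LPS in KO cells and 4 to 6 in WT cells, and 0 for the interaction. With the replicate block the WT count was 6, since Scd1 was called (limma adjusted p = 0.0364). The block within each genotype, chosen after seeing the data, also called Scd1 in WT cells (limma adjusted p = 0.0222) and changed no other call in the LPS responses and the interaction of the 9 genes other than Me1. Centring on the 75th percentile raised the median of all genes to 0.32 with LPS in KO cells and 0.21 in WT cells, and the share of higher genes among all called to 78.6% in KO cells and 73.6% in WT cells, against 47.9% and 34.0% as reported. It was 56.5% for KO against WT cells with LPS and 55.6% for the interaction, against 40.2% and 40.3%, and a second quantile normalization moved it to 44.5% with LPS in WT cells. Of uncalled differences, the 75th percentile centring turned the sign of Srebf1 with LPS in KO cells (0.081) and in WT cells (0.15), Scd1 in KO against WT cells with LPS (0.052) and the interaction of Acly (0.05), and a second quantile normalization turned Srebf1 in WT cells (0.059). Uncalled differences that changed sign when 1 array was left out ran from -0.81 to 0.15 for Scd1 and -0.64 to 0.15 for Abca1 with LPS in KO cells, from -0.083 to 0.028 for Srebf1 in WT cells, from -0.45 to 0.51 for Scd1, -0.94 to 0.027 for Scd2 and -0.16 to 0.16 for Abcg1 in KO against WT cells with LPS, and from -0.75 to 0.22 for Scd2, -0.16 to 0.10 for Acly and -0.091 to 0.23 for Abcg1 in the interaction. The cause was not tested.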
